A study of Mus musculus with 12 samples.

Results

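The genes described here are 34 mouse genes of cholesterol and fatty acid synthesis, chosen by symbol: 5 regulators, 15 sterol enzymes, 11 fatty acid enzymes and 3 glycerolipid enzymes. Of the 34, 33 had a row among the 37681 genes of the count table, and all 33 had enough reads to be among the 19399 genes tested. The expression of Hmgcs1, which makes the HMG-CoA that feeds the sterol branch, was not analysed here. The values come from RNA sequencing of the outer kidney cortex of male C57BL/6 mice, 18 months old and untreated. The 3 TG+ mice (43-29, 43-49 and 43-75) carried the transgene TRACK, gamma-HIF1alphaM3, which places a mutated, constitutively active HIF1α under a promoter active in proximal tubule cells. The 3 TG- mice (43-26, 43-50 and 43-76) were littermates without it. Both kidneys of each mouse gave a library, and the 2 libraries of a mouse were summed, so that n = 3 mice per genotype. In the labels the words TRACK/gamma-HIF1alphaM3 stand for both genotypes, and TG+ or TG- sets them apart.

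Cells build cholesterol and fatty acids from the same acetyl-CoA. In the sterol branch, acetyl-CoA is built up to mevalonate, turned into isoprenoid units, condensed to squalene, and then oxidized and cyclized to sterols that are trimmed to cholesterol. In the fatty acid branch, acetyl-CoA is carboxylated to malonyl-CoA, assembled to palmitate by fatty acid synthase, and then elongated, desaturated and loaded onto glycerol. The transcription factors SREBP-1 (gene Srebf1) and SREBP-2 (gene Srebf2) drive both branches. They wait in the endoplasmic reticulum bound to SCAP, which INSIG proteins hold back when sterols are plentiful. Lipid-filled clear cells are a hallmark of clear cell renal carcinoma, the human tumor that the TRACK mouse was made to model.

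Total reads per mouse ranged from 48052131 to 60506785, so that the members with the fewest reads, Fdps and Idi1, still had at least 73 and 154 reads in each mouse. Levels are given as CPM, read counts scaled to the TMM-normalized library size. Differences were tested by the quasi-likelihood method of edgeR, and p-values were adjusted by Benjamini-Hochberg over all 19399 genes. A member was called at an adjusted p below 0.05. In this fit 2982 genes (15.4%) were called higher and 2105 (10.9%) lower in TG+ kidneys, and the median log2 fold change of all genes tested was 0.01. All 5 HIF1A target genes used to check the labels were called higher, Car9 for example at 166, 122 and 155 CPM in the TG+ mice against 11.7, 14.8 and 17.6 CPM in the TG- mice. Transcripts of proximal tubule cells moved with genotype: 12 of 20 marker genes were called lower, with a median log2 fold change of -0.41, and their summed level was 40329 to 44121 CPM in TG+ mice and 55708 to 59759 CPM in TG- mice. Of the macrophage, endothelium, stroma and lymphocyte markers, 9 of 12, 9 of 9, 6 of 9 and 7 of 10 were called higher. The summed levels of these lists in TG+ against TG- mice were 1083 to 1465 against 659 to 780.4 CPM, 816 to 872 against 466 to 609.8 CPM, 289 to 391.8 against 184 to 216 CPM, and 1024 to 1708 against 249 to 333 CPM. Most of the macrophage sum was Cd36, which other cells express too (889 to 1250.3 CPM in TG+ and 535 to 627 CPM in TG- mice), and most of the lymphocyte sum was the antibody genes Igkc and Jchain. Markers of tubule injury (8 of 11 called higher, sum 752 to 885 against 598 to 748 CPM) and of proliferation (6 of 9, sum 20.7 to 35.8 against 13.9 to 17.0 CPM) moved with genotype too. Most of the injury sum was Spp1, which was not called (602 to 689 CPM in TG+ and 527 to 659 CPM in TG- mice), while Havcr1 was 6.88-fold higher. In cortex made of many cell types, fewer cells of a type and less RNA per cell cannot be told apart. The part of these cell types in the results below was not tested.

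Of the 33 members measured, 4 were called higher and 7 lower in TG+ kidneys. These are 12.1% and 21.2% of the members, against the 15.4% and 10.9% of all genes given above. The median log2 fold change over the members was -0.10. No member passed the stricter rule of an adjusted p below 0.01 with a fold above 2 or below 0.5 in edgeR's test, a rule that 3.77% of all genes tested passed as higher and 0.211% as lower, and 16 members had an unadjusted p below 0.05. DESeq2 passed 0 members by that rule. Scd1, whose fold was above 2, passed it in 5 of 15 alternative fits. These were kidney 2 alone, the fit without 43-50, and a block by pairs that are not established. The others were the removal, after seeing the data, of 4 libraries with fat cell transcripts, and each kidney as its own library. The last counts the kidneys of a mouse as independent. For 6 members the lowest TG+ mouse exceeded the highest TG- mouse, and for 12 the TG+ mice were all below, against 23.4% and 20.8% of all genes. The members called higher were Sqle, Scd1, Scd2 and Elovl6, and those called lower were Mvd, Idi1, Ebp, Sc5d, Dhcr7, Elovl7 and Fads2.

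**Figure D1:**
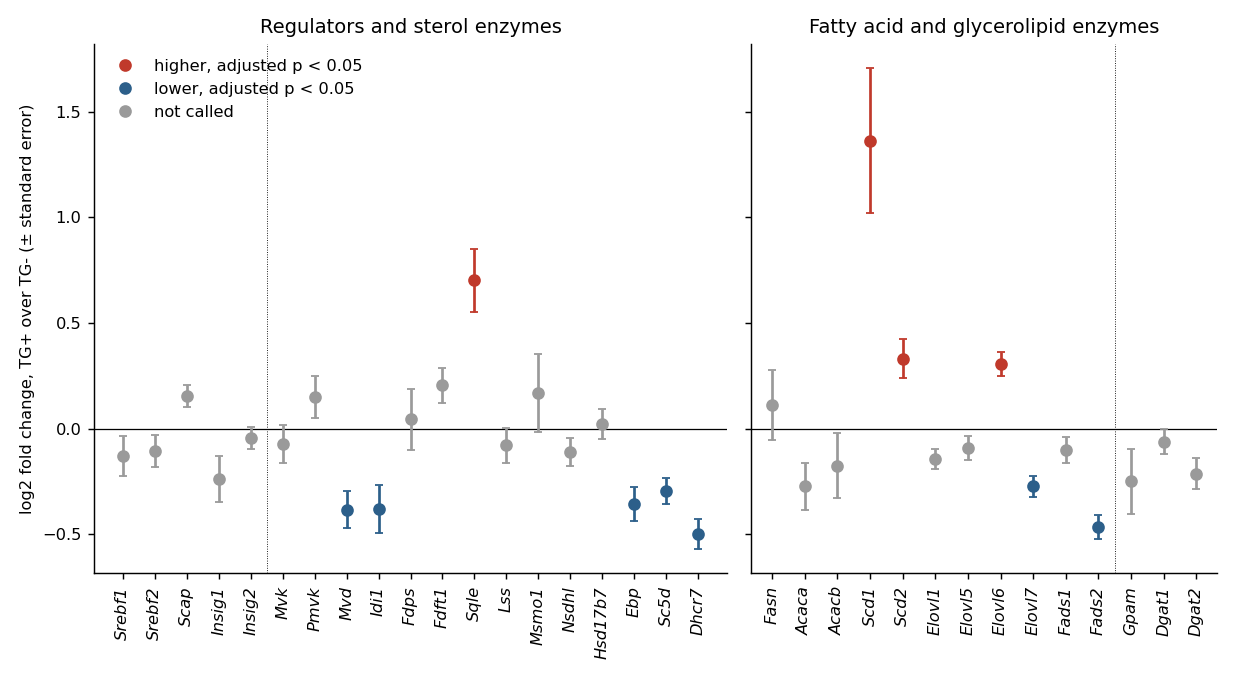
Log2 fold change, TG+ over TG- (vertical axis, log2 units), of the 33 members measured, in pathway order. Bars are standard errors derived from the F statistics of the edgeR test on 3 TG+ and 3 TG- mice. Dotted lines part the regulators from the sterol enzymes and the fatty acid enzymes from the glycerolipid enzymes. Scd1 at 1.36 and Sqle at 0.70 stand above the rest, and the 5 regulators lie between -0.24 and 0.15.

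None of the 5 regulators was called higher or lower in edgeR's test, and 1 of them, Scap, had an unadjusted p below 0.05. DESeq2 also called 0 of the 5. The median log2 fold change of the regulators was -0.11. Srebf1, the gene of SREBP-1, was measured at 50.0, 47.5 and 47.7 CPM in TG+ mice and at 61.7, 48.8 and 48.5 CPM in TG- mice. The groups overlapped, with 43-26 highest. The log2 fold change was -0.13 ± 0.10 (SE), and the adjusted p by edgeR was 0.359. Srebf1 overlaps Rai1 on the other strand, and whether the counting used strand is not given in the sources used here.

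Srebf2, the gene of SREBP-2, stood at 93.8, 80.8 and 81.2 CPM in TG+ mice and at 97.4, 91.7 and 86.4 CPM in TG- mice. The groups overlapped, with a log2 fold change of -0.11 ± 0.08 (SE) and an adjusted p of 0.348 by edgeR. Scap, the sterol-sensing escort of both factors, was at 120.2, 114 and 119 CPM in TG+ mice and at 102, 108 and 107 CPM in TG- mice. Each TG+ mouse was above each TG- mouse by a small margin (log2 fold change 0.15 ± 0.05 SE), and the adjusted p of 0.0613 by edgeR missed the threshold.

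The retention factors did not pass the test either. Insig1 was at 11.6, 13.6 and 11.4 CPM in TG+ mice and at 12.6, 15.5 and 15.1 CPM in TG- mice. Its groups overlapped, and the log2 fold change was -0.24 ± 0.11 (SE) with an adjusted p of 0.145 by edgeR. Insig2 was at 53.1, 51.1 and 53.8 CPM against 55.6, 54.8 and 52.6 CPM, a log2 fold change of -0.05 ± 0.05 (SE) with an adjusted p of 0.560 by edgeR.

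In the sterol branch 1 of 14 enzymes measured was called higher and 5 were called lower, 7.14% and 35.7% of the list against 15.4% and 10.9% of all genes. The median log2 fold change was -0.08. The enzyme called higher was Sqle, and the 5 called lower came from both the early and the late part of the pathway. Of the 6 enzymes that lead up to squalene, 0 were called higher and 2 lower (3 at an unadjusted p below 0.05), and DESeq2 also called 0 higher. Of the 8 that work from squalene onward, 1 was called higher and 3 lower. Scaling by library size alone raised the median of all genes tested from 0.01 to 0.13 and the calls over all genes to 4511 higher and 947 lower. Under that scaling the median of the sterol enzymes was 0.04, and the calls of Mvd, Idi1, Ebp and Sc5d were lost while their log2 fold changes stayed below 0.

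Before squalene, the enzymes that were called both sit around isopentenyl diphosphate, the isoprenoid unit. Mvd, which decarboxylates mevalonate diphosphate to that unit, was measured at 34.4, 38.0 and 32.5 CPM in TG+ mice and at 44.8, 50.4 and 41.8 CPM in TG- mice. All TG+ mice were lower, and the log2 fold change was -0.38 ± 0.09 (SE) with an adjusted p of 0.0159 by edgeR. Mvd overlaps the gene Gm20388, read from the other strand and counted at a mean of 95.9 and 106 CPM in TG+ and TG- mice, which was not called (adjusted p = 0.0932 by edgeR). Idi1, which isomerizes the unit, was at 3.34, 2.94 and 3.07 CPM in TG+ mice and at 3.96, 4.32 and 3.87 CPM in TG- mice. It was lower in all TG+ mice (log2 fold change -0.38 ± 0.11 SE, adjusted p = 0.0430 by edgeR), but its call was lost when any 1 of the 6 mice was left out.

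The other 4 enzymes of the early part were not called. Mvk and Pmvk, which phosphorylate mevalonate in turn, had log2 fold changes of -0.07 and 0.15. Fdps, which builds farnesyl diphosphate, had a log2 fold change of 0.04, from 73 reads or more per mouse. Fdft1, which joins farnesyl units to squalene, had a log2 fold change of 0.21, with all TG+ mice above all TG- mice and an adjusted p of 0.105 by edgeR. Fdft1 overlaps Ctsb, an abundant gene of the other strand at a mean of 689 and 719 CPM in TG+ and TG- mice.

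Sqle, the squalene epoxidase that adds the first oxygen, moved the other way. Its level was 127, 92.4 and 95.0 CPM in TG+ mice and 76.5, 58.2 and 58.8 CPM in TG- mice. Every TG+ mouse was above every TG- mouse, a 1.63-fold difference (log2 fold change 0.70 ± 0.15 SE, adjusted p = 0.0124 by edgeR). Its exact 2-sided permutation p, from 20 ways to split the mice 3 to 3, was 0.1, the smallest possible. Without the TG- mouse 43-76 the log2 fold change was 0.64 and the adjusted p 0.0530 by edgeR. In kidney 1 and in kidney 2 taken alone, the log2 fold changes of Sqle were 0.76 and 0.65.

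At the end of the pathway 3 enzymes that act on double bonds of the sterol ring were lower. Ebp, the sterol isomerase, was at 41.1, 45.8 and 41.0 CPM in TG+ mice and at 50.2, 59.8 and 53.9 CPM in TG- mice. The groups did not overlap (log2 fold change -0.36 ± 0.08 SE, adjusted p = 0.0144 by edgeR). Sc5d, the sterol C5-desaturase, was at 40.0, 37.6 and 39.9 CPM in TG+ mice and at 44.8, 50.8 and 48.6 CPM in TG- mice. It was lower in all TG+ mice as well (log2 fold change -0.30 ± 0.06 SE, adjusted p = 0.0124 by edgeR), with an adjusted p of 0.0503 without the TG- mouse 43-76.

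Dhcr7, which reduces 7-dehydrocholesterol to cholesterol, had the lowest log2 fold change of the 33 members. It was measured at 19.0, 17.7 and 17.4 CPM in TG+ mice and at 26.6, 26.5 and 23.6 CPM in TG- mice. The groups were apart, with a log2 fold change of -0.50 ± 0.07 (SE) and an adjusted p of 0.00241 by edgeR. The call of Dhcr7 was kept in all 15 alternative fits, with log2 fold changes from -0.56 to -0.38.

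Between Sqle and Ebp the members measured were not called. Lss, the cyclase that closes the ring system as lanosterol, had a log2 fold change of -0.08. Msmo1, Nsdhl and Hsd17b7, which together take off the methyl groups at carbon 4, had log2 fold changes of 0.17, -0.11 and 0.02. Msmo1 varied most among these members, with a coefficient of variation of 25.7% among TG+ and 16.4% among TG- mice, its highest value (48.0 CPM) being in the TG+ mouse 43-29, which also had the highest Sqle. Lbr, Cyp51 and Tm7sf2, which are not members, also act in this stretch. Lbr, named after its values were seen, was called lower (log2 fold change -0.38, adjusted p = 0.00660 by edgeR), and Cyp51 and Tm7sf2 were not called.

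**Figure D2:**
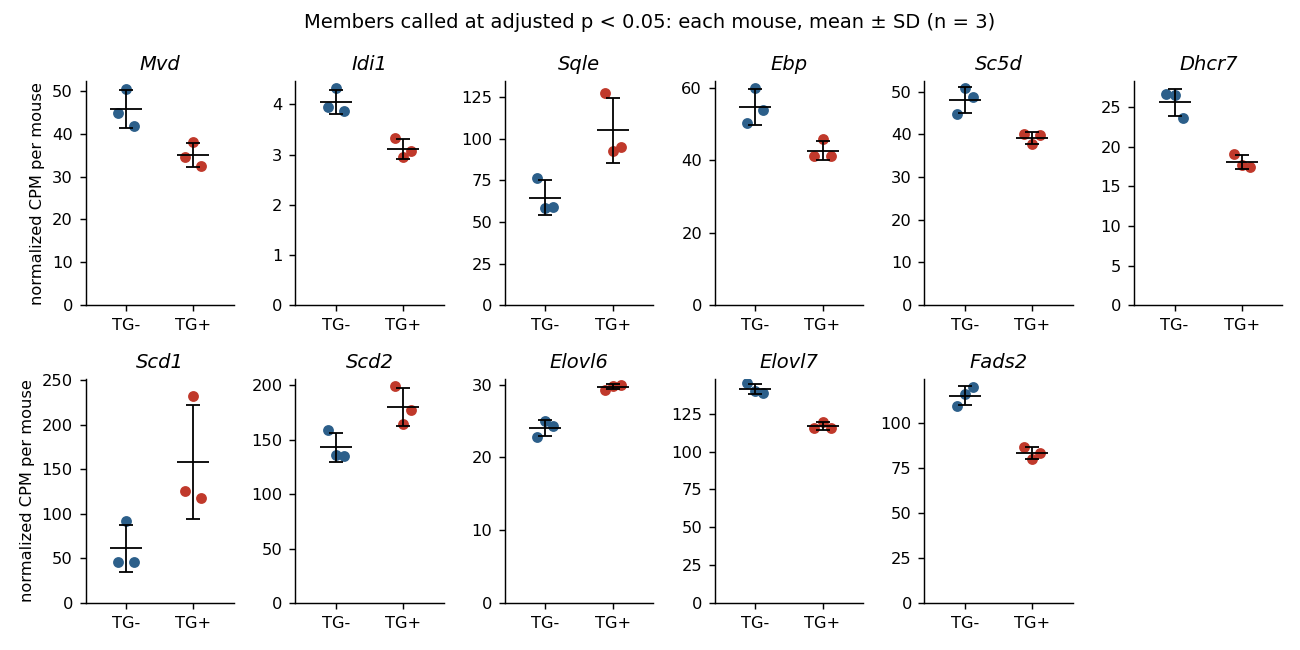
Normalized CPM per mouse (vertical axes, linear, from 0) of the 11 members called at an adjusted p below 0.05; points are mice, TG- in blue and TG+ in red, and black bars are the mean ± SD of n = 3. In all 11 panels the genotypes do not overlap, and Scd1 has the widest spread within both groups.

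In the fatty acid branch 3 of 11 enzymes were called higher and 2 lower, 27.3% and 18.2% of the list against 15.4% and 10.9% of all genes, with a median log2 fold change of -0.10. None of the 3 glycerolipid enzymes was called in edgeR's test, and 1 of them, Dgat2, had an unadjusted p below 0.05. With the glycerolipid enzymes added, the branch counted 3 of 14 higher and 2 of 14 lower, and a median of -0.12. The members called higher were the desaturases Scd1 and Scd2 and the elongase Elovl6. Those called lower were the elongase Elovl7 and the desaturase Fads2.

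The enzymes that make palmitate itself were not called. Fasn, the fatty acid synthase, stood at 79.8, 117 and 74.3 CPM in TG+ mice and at 78.9, 93.2 and 78.7 CPM in TG- mice. The groups overlapped, with the TG+ mouse 43-49 and the TG- mouse 43-50 highest in their groups. The log2 fold change of Fasn was 0.11 ± 0.17 (SE), the adjusted p 0.660 by edgeR, and without 43-49 the log2 fold change was -0.12. Acaca, the acetyl-CoA carboxylase of the cytosol, was at 4.16, 4.50 and 4.52 CPM in TG+ mice and at 5.93, 4.83 and 5.18 CPM in TG- mice. It was lower in all TG+ mice, but the difference missed the threshold (log2 fold change -0.27 ± 0.11 SE, adjusted p = 0.110 by edgeR). Acacb, the carboxylase at the mitochondrial surface whose malonyl-CoA restrains fatty acid oxidation, had a log2 fold change of -0.18, and -0.40 with an adjusted p of 0.0149 by edgeR when the TG+ mouse 43-49 was left out.

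Scd1, the stearoyl-CoA desaturase that turns saturated into monounsaturated chains, had the largest difference of the 33 members. It was measured at 125, 232 and 118 CPM in TG+ mice and at 46.1, 92.0 and 46.2 CPM in TG- mice. The mice of each genotype were far apart, with a coefficient of variation of 40.3% in TG+ and 43.0% in TG-, yet the lowest TG+ mouse was above the highest TG- mouse. Within the 3 pairs that the name of the deposited table lists, without saying what a pair shares, the level of Scd1 in the TG+ mouse was 2.72, 2.52 and 2.55 times that of the TG- mouse (43-29 and 43-26, 43-49 and 43-50, 43-75 and 43-76). The difference was 2.57-fold (log2 fold change 1.36 ± 0.34 SE, adjusted p = 0.0234 by edgeR). The call was lost when the mouse 43-26, 43-49 or 43-76 was left out (adjusted p = 0.0666, 0.0541 and 0.0839 by edgeR), and in kidney 1 alone (adjusted p = 0.108, log2 fold change 1.10), while kidney 2 alone gave 1.73. Scd1 also differed most between the 2 kidneys of a mouse, up to 1.88-fold, at 59.6 and 31.7 CPM in 43-26.

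Scd2, its neighbour on chromosome 19 and a desaturase of the same kind, was at 199, 164 and 177 CPM in TG+ mice and at 159, 136 and 135 CPM in TG- mice. The rise was 1.26-fold without overlap (log2 fold change 0.33 ± 0.09 SE, adjusted p = 0.0336 by edgeR). Its call was lost when 43-29, 43-50, 43-75 or 43-76 was left out, with log2 fold changes of 0.24, 0.29, 0.33 and 0.29. The Scd genes are close paralogs, and how 51-base reads that match more than one of them were counted is not given in the sources used here.

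Elovl6, which lengthens palmitate to stearate, was at 29.3, 29.9 and 30.0 CPM in TG+ mice and at 22.7, 24.9 and 24.4 CPM in TG- mice. The TG+ mice were nearly level with each other and all above the TG- mice (log2 fold change 0.31 ± 0.06 SE, adjusted p = 0.00751 by edgeR), and the call was kept in all 15 alternative fits. Elovl7, an elongase of long saturated and unsaturated chains, was at 115, 119.8 and 115 CPM in TG+ mice and at 145, 139.7 and 139 CPM in TG- mice. It was lower in all TG+ mice (log2 fold change -0.27 ± 0.05 SE, adjusted p = 0.00666 by edgeR), a call that scaling by library size alone removed. Elovl1 and Elovl5, which act on very long and on polyunsaturated chains, had log2 fold changes of -0.14 and -0.09 and were not called.

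Fads2, the delta-6 desaturase that opens the route to long polyunsaturated fatty acids, was at 86.3, 80.1 and 83.4 CPM in TG+ mice and at 109, 116 and 119.9 CPM in TG- mice. All TG+ mice were well below all TG- mice, with a log2 fold change of -0.47 ± 0.06 (SE) and the lowest adjusted p of the members, 0.00127 by edgeR. The call was kept in all 15 alternative fits, with log2 fold changes from -0.50 to -0.35. Fads1, the delta-5 desaturase next to it on chromosome 19, had a log2 fold change of -0.10 and was not called (adjusted p = 0.274 by edgeR).

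Dgat2, which attaches the last fatty acid of a triglyceride, was at 196, 223 and 205 CPM in TG+ mice and at 222, 251 and 252 CPM in TG- mice. Only the TG+ mouse 43-49 reached the lowest TG- mouse, and the log2 fold change of -0.21 ± 0.07 (SE) had an adjusted p of 0.0655 by edgeR, with 0.0249 by DESeq2. Dgat2 passed the threshold as lower when 43-26 or 43-49 was left out, with adjusted p values of 0.0393 and 0.0355. Gpam, which starts glycerolipid synthesis at the mitochondrial surface, and Dgat1, the second triglyceride-forming enzyme, had log2 fold changes of -0.25 and -0.06 and were not called.

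Some libraries held transcripts of fat cells. Adipoq, the adiponectin gene expressed in adipocytes, was at 1 CPM or more in 4 of the 12 libraries: both kidneys of the TG+ mouse 43-49 (5.39 and 7.81 CPM), kidney 2 of the TG+ mouse 43-75 (9.55 CPM) and kidney 1 of the TG- mouse 43-50 (2.86 CPM). It was at 0 in the 6 libraries of 43-26, 43-29 and 43-76. Of 12 adipocyte markers 10 were tested and 2, Fabp4 and Pparg, were called higher, and the summed level of the 12 was 52.6 to 119 CPM per TG+ mouse and 45.2 to 76.4 CPM per TG- mouse. Most of that sum was Fabp4 and Lipe, also where Adipoq was at 0 (29.1 and 16.1 of 52.6 CPM in 43-29), and Pparg was at 5.84 to 6.49 CPM in TG+ and 1.04 to 1.31 CPM in TG- mice, 43-29 included. Scd1 was highest in both libraries of 43-49, at 253 and 209 CPM, while in 43-75 it was at 116 CPM in the kidney with little Adipoq and at 119 CPM in the kidney with much. In 43-50 it was at 63.9 CPM in the kidney with less Adipoq (0.315 CPM) and at 114 CPM in the kidney with more.

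Without those 4 libraries, an alternative chosen after seeing the data that left 2 TG+ and 3 TG- mice, the log2 fold change of Scd1 was 1.21 with an adjusted p of 0.00155 by edgeR. In the same fit, on the libraries that remained, Sqle had a log2 fold change of 0.79, Scd2 0.37 and Elovl6 0.27, and all 3 were called. Fasn then had a log2 fold change of -0.08, and 5 of the fatty acid and glycerolipid enzymes in place of 2 were called lower, among them Acaca, Acacb and Dgat2. Idi1 lost its call, and Scap passed the threshold as higher (log2 fold change 0.20, adjusted p = 0.0322 by edgeR). The adrenal cortex, which makes steroids from cholesterol and lies against the kidney, was hardly represented: Cyp11b1, Cyp11b2 and Cyp21a1 were at 0 in all libraries, and the 8 markers of its list summed to 3.92 to 5.10 CPM in TG+ and 4.54 to 5.12 CPM in TG- mice, most of it Star. Of 3 tested, Mc2r was called higher, at a mean of 0.397 CPM in TG+ and 0.141 CPM in TG- mice.

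**Figure D3:**
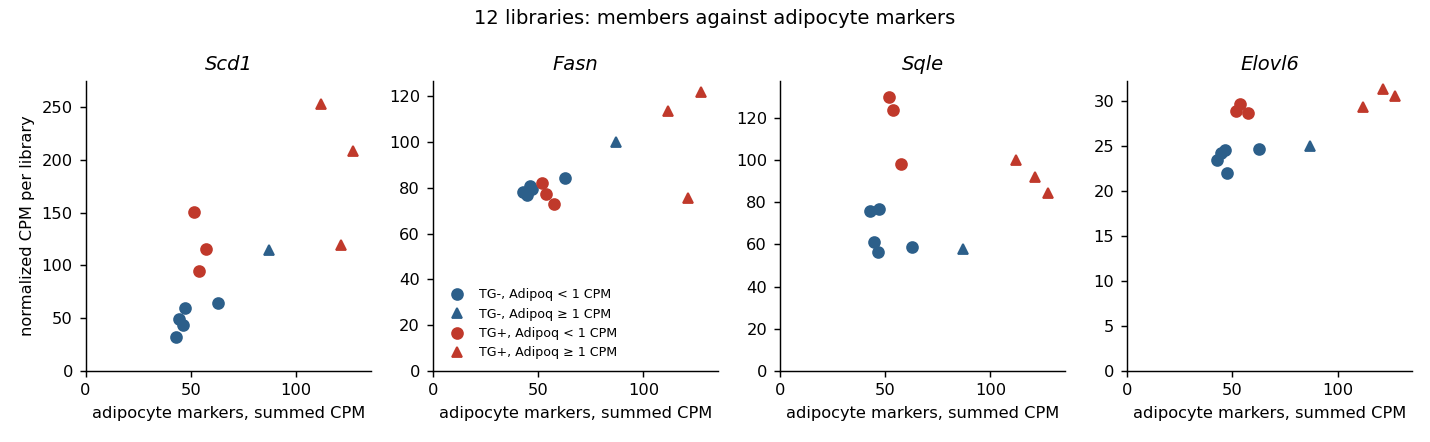
Normalized CPM of Scd1, Fasn, Sqle and Elovl6 (vertical axes) against the summed CPM of 12 adipocyte markers (horizontal axes) in the 12 libraries, 2 per mouse; TG- in blue, TG+ in red, and triangles mark the 4 libraries with Adipoq at 1 CPM or more. The 3 TG+ libraries without it had Scd1 at 95.1, 116 and 150.4 CPM, above the 5 such TG- libraries at 31.7 to 63.9 CPM.

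Levels of different genes were set side by side as the deposited RPKM. The gene lengths behind that scale are not given in the sources used here. Elovl1, at 84.0 CPM and 11.8 RPKM in TG- mice, would need a length beyond the span of its gene. The order below therefore depends on the lengths used and is not a ranking of abundance. On that scale the highest values were in the fatty acid branch: in TG- mice Dgat2 averaged 109 RPKM, Fads2 77.3, Fads1 32.1, Scd2 26.6 and Elovl7 26.3 RPKM, and in the sterol branch Mvd 26.3 and Nsdhl 19.7 RPKM. The lowest values were those of Acaca at 0.181, Idi1 at 0.720 and Mvk at 0.972 RPKM. Scd1 averaged 12.6 RPKM in TG- and 32.0 RPKM in TG+ mice, close to Scd2 at 32.6 RPKM in the TG+ mice. Sqle averaged 5.87 and 9.27 RPKM, and Fasn 7.45 and 7.88 RPKM, in TG- and TG+ mice.

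The promoters of members that were called are shown to let their letters be compared with the direction of change. RefSeq promoter sequences (build GRCm38.p6, 250 bases before to 50 after each start) matched 26 of the 34 members with 36 promoters, Hmgcs1 included; Scd1, Scd2, Sqle, Fdft1, Fdps, Fads1, Dgat1 and Dgat2 had no entry. Printed are those of called members with a single promoter and at least 1 motif, each 5′ to 3′ on the strand of the gene, from 250 bases before to 20 after the start. Capitals mark matches on either strand to CACGTG (an E-box), ACGTG and GCGTG (forms of the hypoxia response element core, the first of them contained in CACGTG) and ATTGG (an inverted CCAAT box, read by NF-Y, a partner of SREBP).
Mvd, chr8:122443403-122443672, minus strand: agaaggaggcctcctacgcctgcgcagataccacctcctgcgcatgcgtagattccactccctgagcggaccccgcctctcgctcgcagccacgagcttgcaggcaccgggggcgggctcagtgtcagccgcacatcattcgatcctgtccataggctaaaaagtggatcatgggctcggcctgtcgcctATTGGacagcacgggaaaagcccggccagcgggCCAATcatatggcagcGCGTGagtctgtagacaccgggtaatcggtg
Idi1, chr13:8885356-8885625, plus strand: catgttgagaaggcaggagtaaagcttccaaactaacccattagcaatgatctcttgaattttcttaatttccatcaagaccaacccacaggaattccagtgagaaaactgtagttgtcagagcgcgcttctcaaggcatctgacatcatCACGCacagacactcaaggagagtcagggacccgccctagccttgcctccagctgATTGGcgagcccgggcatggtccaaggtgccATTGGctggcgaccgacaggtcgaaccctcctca
Ebp, chrX:8193493-8193762, minus strand: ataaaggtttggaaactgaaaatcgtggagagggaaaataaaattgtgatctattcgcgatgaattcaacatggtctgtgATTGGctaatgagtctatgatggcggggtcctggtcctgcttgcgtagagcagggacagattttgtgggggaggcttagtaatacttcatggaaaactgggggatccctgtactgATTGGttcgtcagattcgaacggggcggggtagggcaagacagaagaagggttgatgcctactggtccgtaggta
Sc5d, chr9:42264281-42264550, minus strand: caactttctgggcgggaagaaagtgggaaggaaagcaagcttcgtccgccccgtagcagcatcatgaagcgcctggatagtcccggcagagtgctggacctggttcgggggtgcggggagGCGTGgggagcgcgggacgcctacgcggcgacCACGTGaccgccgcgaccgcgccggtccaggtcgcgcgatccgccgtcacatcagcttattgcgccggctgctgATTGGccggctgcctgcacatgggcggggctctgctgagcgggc
Elovl6, chr3:129532136-129532405, plus strand: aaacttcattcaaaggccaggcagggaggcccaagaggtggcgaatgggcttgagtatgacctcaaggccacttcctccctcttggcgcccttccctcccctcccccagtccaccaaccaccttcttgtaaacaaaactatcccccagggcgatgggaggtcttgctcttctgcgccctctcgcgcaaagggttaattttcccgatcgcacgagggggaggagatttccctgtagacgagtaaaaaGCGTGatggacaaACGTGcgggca

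Of the 5 sterol enzymes that fell, the 4 printed, Mvd, Idi1, Ebp and Sc5d, hold ATTGG or its complement CCAAT, whereas of the 3 promoters listed for Dhcr7 only 1 does. Mvk, Lss, Msmo1, Nsdhl and Hsd17b7, which were not called, hold them too. Elovl6, which rose, holds none in this window. The promoters of Fads2 and Elovl7, which fell, held none of the motifs. Over the 36 promoters of members, ATTGG was found in 61.1%, against 37.4% of 32851 promoters of the same length. GCGTG was found in 50.0% against 32.4%, ACGTG in 25.0% against 19.6% and CACGTG in 19.4% against 7.15%. The sterol regulatory element core TCACNCCAC was found in 1 promoter of a member, that of Hmgcs1 (2.78%), against 1.24% of all.

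Of 113 other genes tested in 6 lists of neighbouring steps, 17 were called higher (15.0%, near the 15.4% of all genes) and 26 lower (23.0%, against 10.9% of all genes), and the median log2 fold change was -0.06. In the list of other genes around the sterol branch 11 were tested, of which 1 was called higher and 4 lower (9.09% and 36.4%). This list is wider than cholesterol synthesis. It holds Coq2, Dhdds and Fdx1, the gene called higher, and Acat1, a mitochondrial thiolase called lower.

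Of 23 genes of sterol uptake, esterification and export, 5 were called higher and 3 lower (21.7% and 13.0%, against 15.4% and 10.9% of all genes). Scarb1, a receptor that takes up cholesteryl esters from HDL, and Abcg1, a sterol exporter, both had log2 fold changes of 0.64, from 11.8 to 18.4 CPM and from 5.04 to 7.87 CPM on average. Soat2, an acyltransferase that stores cholesterol as esters, rose with a log2 fold change of 1.44 (adjusted p = 0.00280 by edgeR) at levels below 1 CPM in all 6 mice. Of 21 genes of sterol and energy sensing, 1 was called higher and 5 lower (4.76% and 23.8%).

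In the list that supplies acetyl-CoA and NADPH, Me1 had the largest rise. Me1, the cytosolic malic enzyme that makes NADPH, was at 659, 517 and 601 CPM in TG+ mice and at 284, 320.1 and 279.5 CPM in TG- mice. The level was 2.01-fold higher (log2 fold change 1.01 ± 0.10 SE, adjusted p = 4.15e-04 by edgeR), far beyond the spread within either genotype. Of the 12 genes of this list 3 were called higher and 4 lower (25.0% and 33.3%, against 15.4% and 10.9% of all genes). Mid1ip1, which helps acetyl-CoA carboxylase to polymerize, rose (log2 fold change 0.67, adjusted p = 0.0143 by edgeR), and Mlycd, which breaks down malonyl-CoA, fell (log2 fold change -0.61, adjusted p = 0.00732 by edgeR). Acly, which cleaves citrate to cytosolic acetyl-CoA, was the third gene called higher, named after its values were seen, at 354, 302 and 298 CPM in TG+ mice and 250.2, 232 and 224 CPM in TG- mice (log2 fold change 0.43 ± 0.08 SE, adjusted p = 0.00728 by edgeR).

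Of 20 other fatty acid genes 4 were called higher and 4 lower (against 15.4% and 10.9% of all genes). Scd4, another desaturase of the Scd family, rose with a log2 fold change of 1.21 at a mean of 1.06 CPM in TG+ and 0.454 CPM in TG- mice. Acsf2, an acyl-CoA synthetase, rose with a log2 fold change of 0.62, and Acsm2, a medium-chain acyl-CoA synthetase of the proximal tubule that is also in the marker list above, fell with a log2 fold change of -0.85, from a mean of 5537 to 3082 CPM. Of 26 other glycerolipid genes 3 were called higher and 6 lower (11.5% and 23.1%). Lpcat2, which remodels phosphatidylcholine, rose (log2 fold change 0.77) at about the level of 1 to 3 CPM, and Mogat1, a monoacylglycerol acyltransferase, fell (log2 fold change -0.59, adjusted p = 0.0135 by edgeR).

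**Figure D4:**
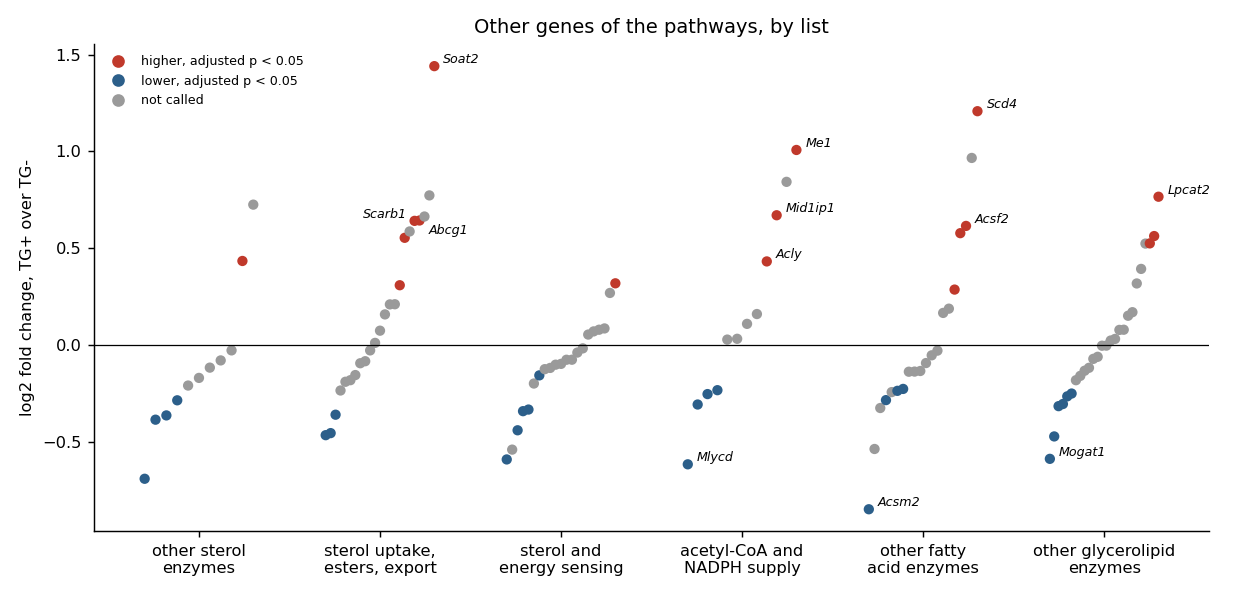
Log2 fold change, TG+ over TG- (vertical axis), of the 113 other pathway genes tested, one point per gene, sorted within 6 lists (horizontal axis); red and blue mark genes called higher and lower at an adjusted p below 0.05, grey genes were not called, and genes described in the text carry their names. Me1 at 1.01 and Acsm2 at -0.85 stand at opposite ends of their lists.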

How the data were processed

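The authors sequenced kidney cortex RNA as 51-base single-end reads and deposited a table of raw read counts per Ensembl gene for 12 libraries. The submitters' processing notes name the genome build mm9, and the paper's methods name the Tuxedo tools; the counting program, its treatment of strand and of reads with several matches are not given in the sources used here. The RPKM values that the authors deposited in the same table were used only to compare levels between genes, as means per genotype. The log2 RPKM columns and the authors' own comparisons (ratios, p-values and q-values) were not used.

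Counts of the 2 kidneys of a mouse were summed. Genes passing filterByExpr were scaled by TMM (factors 0.944 to 1.07), fitted by genotype and tested by quasi-likelihood in edgeR 4.0.16 (R 4.3.3, limma 3.58.1), and the p-values of 19399 genes were adjusted by Benjamini-Hochberg. The test gives no standard error, so the SE of a log2 fold change was derived as its absolute value over the square root of the F statistic. The biological coefficient of variation was 0.114 among mice sharing a genotype and 0.0421 among kidneys sharing a mouse. Symbols came from GENCODE release M21, matched by identifier for 32642 of 37681 genes. Single members also got an exact 2-sided permutation test over the 20 assignments of mice, whose smallest p is 0.1. On simulated data of 19234 genes, 67.2% of 67 genes changed 1.5-fold, 92.5% of 67 changed 2-fold and all of 66 changed 4-fold were called, with 20 false calls. Far fewer genes were changed there than were called in the data, so these shares need not hold for the data.

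Named with values per mouse were the called members, the regulators, Fasn, Acaca, Sqle, Scd1 and Dgat2, and every other member with its log2 fold change. Of the other pathway lists, genes called with a fold above 1.5 or below its inverse were named, at most 4 per list by adjusted p. Some of them are not reported here. The members and lists were chosen with earlier results of these data known. The alternatives were DESeq2 (1.42.0), upper-quartile scaling, library size alone, kidneys as separate libraries, 1 kidney alone, unfiltered counts, a block by pair, an adjusted p of 0.01, leaving out each mouse, and, added after seeing the data, leaving out the 4 libraries with Adipoq at 1 CPM or more.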

Additional observations from a re-analysis of the deposited data

How the results depend on the processing

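Scaling by library size alone, which raised the median of all genes tested from 0.01 to 0.13, gave 2 sterol enzymes higher and 1 lower (1 and 5 as reported), 1 fatty acid or glycerolipid enzyme lower (2 as reported) and 1 regulator higher (0 as reported). The medians of the sterol and of the fatty acid and glycerolipid enzymes became 0.044 and -0.0018, and the log2 fold changes turned positive for Srebf2 (0.012), Insig2 (0.074), Mvk (0.047), Lss (0.041), Nsdhl (0.0082), Elovl5 (0.029), Fads1 (0.019) and Dgat1 (0.058). Taking each kidney as its own library counts the kidneys of a mouse as independent. That fit gave 2 sterol enzymes higher, 4 fatty acid or glycerolipid enzymes lower, and 1 regulator higher and 1 lower. Kidney 1 alone gave 3 sterol enzymes lower and 1 fatty acid enzyme higher. Kidney 2 alone gave 2 sterol enzymes higher, with Insig2 at 0.012 and Dgat1 at 0.045. DESeq2 called 4 fatty acid or glycerolipid enzymes lower. At an adjusted p below 0.01 there were 0 sterol enzymes higher (edgeR, with 7 sterol enzymes at an unadjusted p below 0.05 in either direction; DESeq2 called 1 higher at 0.05), 1 lower, and 1 fatty acid enzyme higher. Without the 4 libraries with adipocyte transcripts, 5 fatty acid or glycerolipid enzymes were lower, 1 regulator was higher, and Fasn stood at -0.082. The cause of these changes was not tested.

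Leaving out each mouse in turn gave 0 to 1 sterol enzymes higher and 3 to 4 lower, 1 to 2 fatty acid or glycerolipid enzymes higher and 2 to 4 lower, and 0 regulators in either direction. The TG- mouse 43-76 gave the lowest numbers for sterol enzymes (0 higher, 3 lower) and for fatty acid enzymes higher (1), and without the TG+ mouse 43-49 there were 4 lower. The log2 fold changes ranged through 0 for Fdps (-0.014 to 0.10), Msmo1 (-0.068 to 0.29), Hsd17b7 (-0.048 to 0.061) and Fasn (-0.12 to 0.22).

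The name of the deposited table lists the mice as 3 pairs, but the labels do not say what a pair shares. The deviations of 43-29 and 43-26, 43-49 and 43-50, and 43-75 and 43-76 from their group means correlated at 0.353, 0.315 and -0.0166, so pairing was not taken as established. With a block by those pairs, 3413 genes were higher and 2499 lower, Idi1 lost its call and Dgat2 (log2 fold change -0.21) gained one. Scd1 and Sqle had log2 fold changes of 1.37 and 0.70 with that block, with adjusted p values of 3.39e-05 and 3.85e-04 by edgeR. With 3 mice per genotype, members with small changes can be missed, as some simulated 1.5-fold changes were. The share missed in the simulation need not hold here, since it changed far fewer genes than were called in the data.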
